A study of Mus musculus with 4 samples.

Results

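The brush border peptidases and endocytic receptors of the proximal tubule were followed by 9 listed gene symbols, *Mme*, *Anpep*, *Dpp4*, *Enpep*, *Ggt1*, *Lrp2*, *Cubn*, *Amn* and *Dab2*, of 22063 genes listed in the deposited table. All 9 symbols were found, and all are reported whatever their values, although the list was chosen with earlier results of these data known. RNA-sequencing covered 4 libraries of TKPTS cells, an immortalized mouse renal proximal tubular cell line that the labels call TKPT. The control group (si-NC, replicates 2 and 3) carried a scrambled siRNA, which the labels give as wild type, and the other group (si-*Itgb6*, replicates 1 and 3) carried an siRNA against *Itgb6*, the beta subunit of integrin αvβ6, which the labels give as knockdown. In both groups the cells were transfected at a density of 60%, kept for 24 h in 1% O2 and 5% CO2 and then returned to normal oxygen for 12 h, so no library was without hypoxia. All libraries came from the same cell line, and nothing in the labels says that replicates were separate cultures, so p-values measure only the spread between these samples, which may be technical. The comparison asks which of these apical genes the cells expressed, and whether their levels differed between the groups.

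The apical membrane of proximal tubule cells is folded into a dense brush border that carries peptidases facing the filtrate. Neprilysin, aminopeptidases N and A, dipeptidyl peptidase 4 and gamma-glutamyltransferase break filtered peptides and glutathione into pieces that transporters can take up. At the base of the microvilli, megalin (*Lrp2*) and the cubilin-amnionless complex (*Cubn*, *Amn*) capture filtered proteins and vitamin carriers, and the adaptor Dab2 links megalin to clathrin-coated pits.

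Totals were 15435074 to 17220281 estimated counts per library, and 3 counts, the limit set by a count of 0, stood for 0.174 to 0.194 CPM (counts scaled to library size). *Itgb6* itself was checked first, since it tests the labels. It had 285 and 284 counts in the si-NC libraries and 279 and 260 in the libraries labelled si-*Itgb6*, a log2 fold change of -0.0051 ± 0.13 (SE) with an adjusted p of 0.991 (edgeR quasi-likelihood test, Benjamini-Hochberg). A lower level of the targeted mRNA was thus not detected under the si-*Itgb6* label, and every direction below is between labels. The paper reports that the siRNA was checked by qPCR and western blot, with less αvβ6 protein in hypoxic TKPTS cells. Those are other measures than the RNA counts of these 4 libraries. Of 25 proximal tubule markers, 6 had a mean of at least 1 FPKM (the deposited level per length of transcript and sequencing depth), *Aqp1*, *Slc4a4*, *Ass1*, *Slc27a2*, *Cyp4b1* and *Gatm*. Another 12 had 0 counts in every library, among them the phosphate transporter *Slc34a1*, the glucose transporter *Slc5a2* and the organic anion transporter *Slc22a6*. *Pax8*, a transcription factor of the renal epithelium, was at 115 to 142 FPKM, while *Hnf4a*, a driver of proximal tubule maturation, had 0 to 1 count. The RNA therefore carried a renal epithelial transcription factor and few of the defining transporters of the proximal tubule.

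Start-site windows are shown for the 3 members with the highest levels, *Mme*, *Dab2* and *Dpp4*, and for megalin as a member near the floor, so that the letters can be set beside the levels. They are RefSeq sequences (GRCm38.p6) of 300 bases, from 250 before to 50 after an annotated start, and all 9 members matched, with 15 windows among 32851. Capitals mark the HNF1 half-site GTTAAT and the GC box GGGCGG, each searched on both strands.
Mme, chr3:63294961-63295260, plus strand: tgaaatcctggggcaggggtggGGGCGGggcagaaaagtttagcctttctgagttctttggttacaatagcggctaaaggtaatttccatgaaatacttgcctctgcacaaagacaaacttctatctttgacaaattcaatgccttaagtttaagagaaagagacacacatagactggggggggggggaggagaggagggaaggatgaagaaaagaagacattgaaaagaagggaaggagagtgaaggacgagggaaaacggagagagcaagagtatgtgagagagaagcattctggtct
Mme, chr3:63295622-63295921, plus strand: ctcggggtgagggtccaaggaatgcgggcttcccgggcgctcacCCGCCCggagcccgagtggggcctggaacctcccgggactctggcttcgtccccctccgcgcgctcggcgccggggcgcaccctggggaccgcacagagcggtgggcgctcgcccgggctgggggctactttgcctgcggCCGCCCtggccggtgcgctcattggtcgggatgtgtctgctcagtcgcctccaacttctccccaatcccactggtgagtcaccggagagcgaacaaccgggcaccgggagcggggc
Dpp4, chr2:62412182-62412481, minus strand: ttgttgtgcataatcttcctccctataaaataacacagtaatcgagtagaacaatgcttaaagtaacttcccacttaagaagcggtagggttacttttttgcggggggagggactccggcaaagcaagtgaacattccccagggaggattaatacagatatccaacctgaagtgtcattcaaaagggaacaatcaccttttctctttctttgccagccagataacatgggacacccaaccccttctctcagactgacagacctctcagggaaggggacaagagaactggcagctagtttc
Dab2, chr15:6386498-6386797, plus strand: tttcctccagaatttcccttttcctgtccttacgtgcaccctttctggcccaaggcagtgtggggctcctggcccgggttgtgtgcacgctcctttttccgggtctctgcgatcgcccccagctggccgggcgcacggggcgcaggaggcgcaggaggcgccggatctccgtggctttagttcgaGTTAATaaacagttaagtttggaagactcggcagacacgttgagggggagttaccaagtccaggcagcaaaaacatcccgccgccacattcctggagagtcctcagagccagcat
Lrp2, chr2:69585980-69586279, minus strand: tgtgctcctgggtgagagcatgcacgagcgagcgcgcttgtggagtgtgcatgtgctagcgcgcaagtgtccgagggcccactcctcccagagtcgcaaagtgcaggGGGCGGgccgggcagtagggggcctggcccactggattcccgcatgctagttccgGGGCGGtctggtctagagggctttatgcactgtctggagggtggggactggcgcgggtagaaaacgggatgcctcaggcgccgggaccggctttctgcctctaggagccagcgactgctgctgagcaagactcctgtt
The *Mme* windows shown, 2 of 3, differed in composition, with 46.0% GC and 4 CpG in the upstream window and 73.0% GC and 32 CpG in the downstream window, where the median of all windows was 52.7% GC and 7 CpG. The *Dpp4* window had 45.3% GC and 4 CpG, the *Dab2* window shown, 1 of 2, 59.3% and 19, and the *Lrp2* window 65.0% and 20. The *Dab2* window not shown, chr15:6299539-6299838, had 37.7% GC, 2 CpG and no HNF1 half-site. The HNF1 half-site was found in 1 of the 15 member windows, the *Dab2* window shown, and in 7.10% of all windows. The HNF4 motif CAAAGTCCA, on either strand, was found in none of the 15 and in 0.475% of all. A GC box was found in 8 of the 15, from *Amn*, *Anpep*, *Ggt1*, *Lrp2* and *Mme*, and in 35.7% of all. The GC box therefore lay in windows of members with high levels and with none. A match is a description of the letters, and counts per gene do not show which start was used.

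Only 3 of the 9 members (33.3%) reached a mean of 1 FPKM, against 10319 of all genes listed (46.8%). They were *Mme*, *Dab2* and *Dpp4*, at 14.4, 9.78 and 3.84 FPKM, which ranked 4570, 5635 and 8039 among the 22063 genes. *Ggt1* and *Anpep* followed at 0.825 and 0.692 FPKM, and their ranges over the 4 libraries overlapped. *Cubn* was at 0.198 FPKM, *Lrp2* at 0.0293, *Enpep* at 0.0123 and *Amn* at 0. The ranges of *Lrp2* and *Enpep*, and of *Enpep* and *Amn*, also overlapped, and every other pair of neighbours in this order was separate in all 4 libraries. Dividing CPM by the longest annotated transcript gave the same order, from 8.09 CPM per kilobase for *Mme* through 6.17 for *Dab2* and 3.84 for *Dpp4* to 0.465 for *Ggt1* and 0.357 for *Anpep*. Among the peptidases, transcripts of neprilysin and Dpp4 were thus present, and of the endocytic apparatus the adaptor was present while both large receptors and amnionless were near or at 0.

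**Figure D1:**
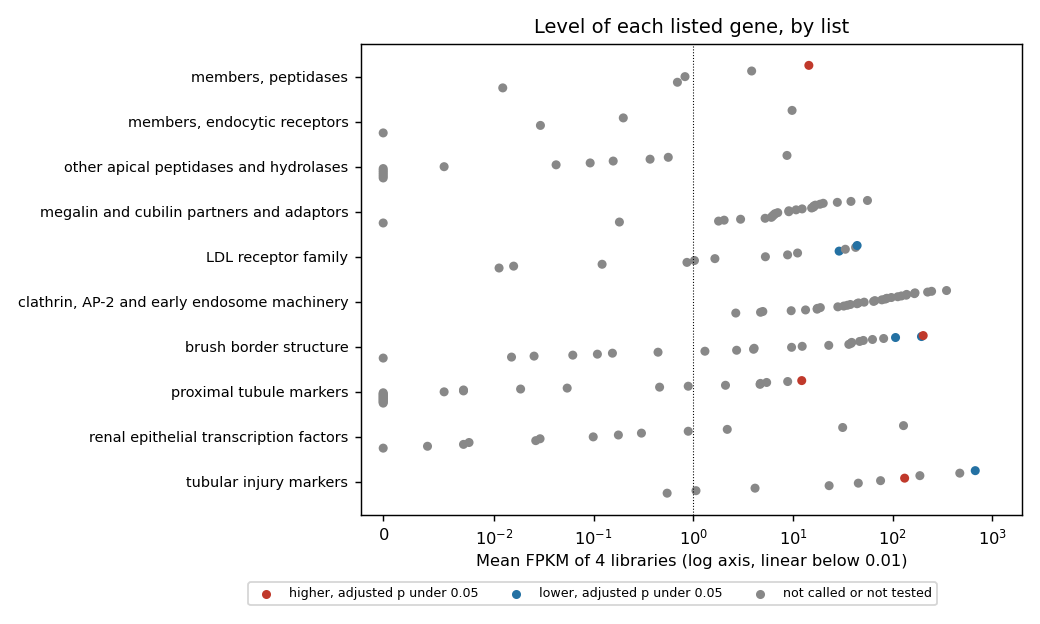
Mean FPKM over the 4 libraries (horizontal axis, log scale with a linear stretch below 0.01) for each gene of the peptidase and receptor groups and of related gene lists (rows), where each point is 1 gene, red or blue marks an adjusted p under 0.05 (higher or lower under the si-*Itgb6* label) and the dotted line is 1 FPKM. *Mme*, at 14.4 FPKM, is the rightmost peptidase, and *Dab2*, at 9.78 FPKM, stands apart from the other receptor genes, while all 30 genes of the clathrin list lie above 1 FPKM.

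Between the groups, 6 of the 9 members had enough counts to be tested by edgeR's quasi-likelihood test, and 1 of them, *Mme*, was higher in the libraries labelled si-*Itgb6* when called by 2 criteria, a fold change above 1.2 and a p below 0.05 before adjustment. No member was lower, none had an unadjusted p under 0.05 in that direction, and DESeq2 and limma also gave 0. Over the 11727 genes tested, the same thresholds called 4.37% higher and 5.20% lower. At an adjusted p under 0.05, *Mme* was again the member called, where 2.11% of all genes tested were higher and 2.52% were lower. The tested members split evenly, with 3 log2 fold changes above 0 and 3 below, and their median was -0.038 against 0.00017 for all genes tested. Both libraries of a group lay beyond both of the other for 1 of the 6, compared with 49.2% of all genes tested. In RNA from whole cultures, fewer cells that express a gene and less RNA per cell cannot be told apart.

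**Figure D2:**
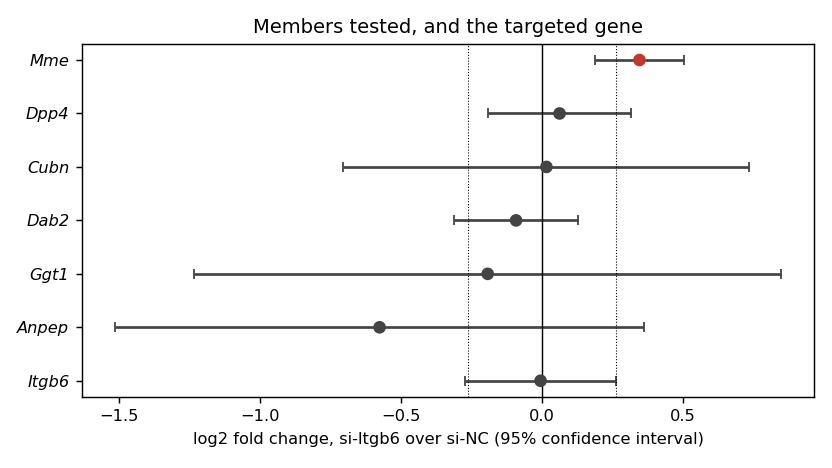
Log2 fold change (horizontal axis, libraries labelled si-*Itgb6* over si-NC) of the 6 members tested, and of *Itgb6*, with bars for the 95% interval of edgeR's quasi-likelihood test and dotted lines at a fold change of 1.2. The interval of *Mme*, 0.19 to 0.50, is the only interval of the 6 members that does not cross 0, and those of *Ggt1* and *Anpep* are the widest.

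*Mme* (ENSMUSG00000027820, GRCm38 chr3:63241537-63386030, plus strand, protein coding) encodes neprilysin, a zinc metallopeptidase that cleaves small peptides such as natriuretic peptides and bradykinin. It had 937 and 988 counts in the si-NC libraries and 1105 and 1223 in the libraries labelled si-*Itgb6*. After normalization these were 57.4 and 57.2 CPM against 71.4 and 74.2 CPM. Both libraries labelled si-*Itgb6* were above both si-NC libraries, and the gap was wider than the spread within either group. The means were 57.3 ± 0.178 and 72.8 ± 2.05 CPM (SD, n = 2 each), a 1.27-fold difference. The log2 fold change was 0.35 ± 0.077 (SE), with a 95% interval of 0.19 to 0.50 and an adjusted p of 0.00585 (edgeR quasi-likelihood test, Benjamini-Hochberg). The authors' FPKM values were 12.7 and 13.8 against 15.2 and 15.8, and on the log2(FPKM + 0.1) scale the limma log2 fold change was 0.23 with an adjusted p of 0.345. In that limma test, 0 of the 12530 genes tested had an adjusted p under 0.05.

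The *Mme* log2 fold change varied little with the scaling of the libraries, at 0.33 by library size alone and 0.35 by RLE factors. It was smaller when trends of GC content and length were removed together. The longest *Mme* transcript is 8039 bases with 38.0% GC, whereas the median over tested genes was 49.8% GC. Both trends used the longest transcript of each gene, although the deposited counts and FPKM together imply 4155 to 4698 bases for *Mme*. Across 11710 tested genes, which are not independent replicates, the log2 fold change went down as GC content went up, with a Spearman rho of -0.36. With the trends of GC content and length removed from each library, the *Mme* log2 fold change was 0.22 with an adjusted p of 0.152 (edgeR), and its fold change fell under 1.2. Without si-NC replicate 2 it was 0.35 with an adjusted p of 0.218, and without si-NC replicate 3 it was 0.35 with an adjusted p of 0.0896. The parts that GC content and length had in the difference were not tested.

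**Figure D3:**
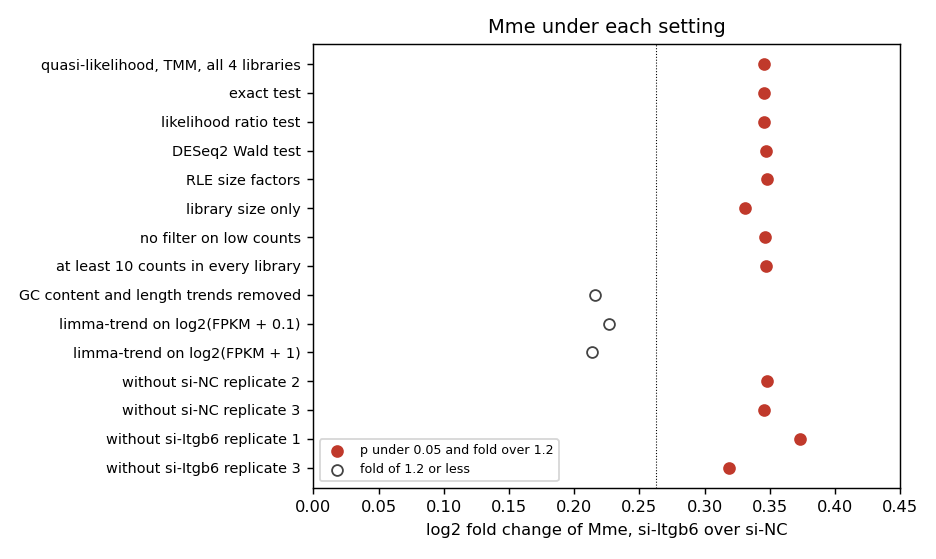
Log2 fold change of *Mme* (horizontal axis, libraries labelled si-*Itgb6* over si-NC) in each analysis setting (rows), with filled points where the unadjusted p was under 0.05 and the fold change over 1.2 (dotted line). All points lie above 0, from 0.21 with limma on log2(FPKM + 1) to 0.37 without si-*Itgb6* replicate 1, and the 3 open points, on FPKM or with GC content and length trends removed, are the lowest.

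*Dpp4* (ENSMUSG00000035000, GRCm38 chr2:62330073-62412231, minus strand) encodes a serine peptidase that removes dipeptides from the amino end of incretins and chemokines. It had 297 and 370 counts in the si-NC libraries and 307 and 355 in the libraries labelled si-*Itgb6*, or 18.2 and 21.4 against 19.8 and 21.6 CPM. The groups overlapped, and the means were 19.8 ± 2.27 and 20.7 ± 1.22 CPM (SD, n = 2). The log2 fold change was 0.06 ± 0.12 (SE) with a 95% interval of -0.19 to 0.32, and its adjusted p was 0.840 (edgeR). Its exons overlap *Gm13561*, and without strand information their reads cannot be told apart.

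*Anpep* (ENSMUSG00000039062, GRCm38 chr7:79821803-79861059, minus strand) encodes aminopeptidase N, also known as CD13, which trims neutral residues from peptides. Its counts were low, 20 and 35 in the si-NC libraries and 13 and 22 in the libraries labelled si-*Itgb6*, and they overlapped between the groups. The means were 1.63 ± 0.566 and 1.09 ± 0.351 CPM (SD, n = 2), a log2 fold change of -0.58 ± 0.46 (SE) with a 95% interval of -1.51 to 0.36 and an adjusted p of 0.551 (edgeR). The FPKM values did not follow the counts: they were 0.327 and 0.744 in the si-NC libraries and 0.496 and 1.201 in the libraries labelled si-*Itgb6*. On log2(FPKM + 0.1) the difference was therefore of the opposite sign, 0.55.

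The transcript length that the authors' values imply, taken as counts over FPKM and total counts, accounts for this arithmetically. For *Anpep* it was 3774 and 2732 bases in the si-NC libraries and 1698 and 1097 bases in the libraries labelled si-*Itgb6*, while the longest annotated transcript is 3797 bases. The highest of these was 3.44 times the lowest, and over 11710 tested genes the median ratio was 1.02, with 1.62% of genes above 2. For *Dpp4* the implied length was 5267 to 5268 bases in all 4 libraries and for *Cubn* 11253 to 11288, close to their longest transcripts of 5268 and 11262 bases. For *Mme* it was 4155 to 4698 bases and for *Dab2* 2805 to 3026, below the longest transcripts of 8039 and 4663 bases. FPKM thus ranked the *Anpep* libraries by length as well as by counts, and with 13 to 35 counts per library the split among its 6 annotated transcripts rests on few reads.

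**Figure D4:**
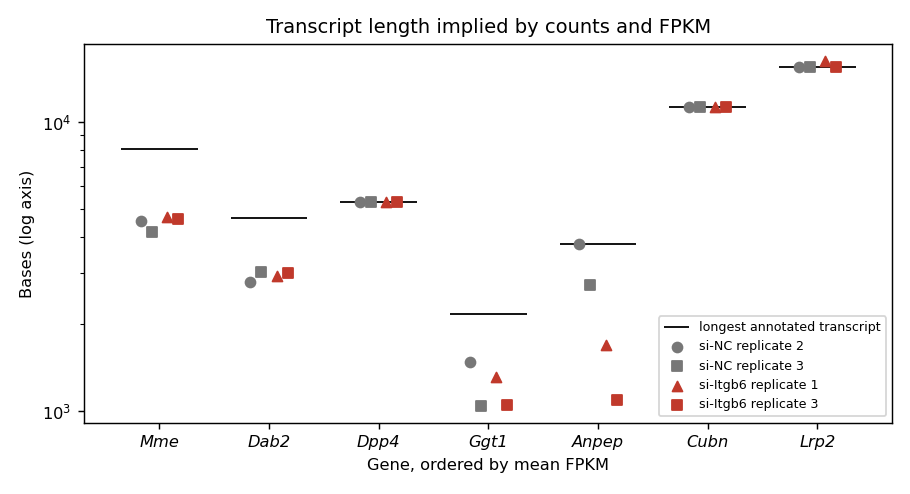
Transcript length implied by the deposited counts and FPKM (vertical axis, bases, log scale) for the 7 members with counts in all libraries, with a point for each library coloured by group and a line at the longest annotated transcript. The *Dpp4*, *Cubn* and *Lrp2* points nearly coincide, whereas those of *Anpep* run from 1097 to 3774 bases.

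*Ggt1* (ENSMUSG00000006345, GRCm38 chr10:75561604-75586200, plus strand) encodes gamma-glutamyltransferase 1, which starts the breakdown of extracellular glutathione. It had 21 and 15 counts in the si-NC libraries and 15 and 15 in the libraries labelled si-*Itgb6*, with means of 1.08 ± 0.296 and 0.940 ± 0.0410 CPM (SD, n = 2). The groups overlapped, and the log2 fold change was -0.19 ± 0.51 (SE) with a 95% interval of -1.23 to 0.85 and an adjusted p of 0.887 (edgeR). *Enpep* (ENSMUSG00000028024, GRCm38 chr3:129269175-129332720, minus strand), which encodes aminopeptidase A, the enzyme that trims angiotensin II, had 0, 0, 2 and 0 counts. All libraries were under the limit of 3 counts, and no difference was detectable at this depth.

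Among the endocytic genes, *Dab2* (ENSMUSG00000022150, GRCm38 chr15:6299788-6440712, plus strand) had the most counts. It had 458 and 541 counts in the si-NC libraries and 449 and 441 in the libraries labelled si-*Itgb6*, or 28.1 and 31.3 against 29.0 and 26.8 CPM. The groups overlapped, with means of 29.7 ± 2.29 and 27.9 ± 1.57 CPM (SD, n = 2). The log2 fold change was -0.09 ± 0.11 (SE) with a 95% interval of -0.31 to 0.13, and its adjusted p was 0.710 (edgeR). Exons of *Dab2* overlap *Gm18888*.

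*Cubn* (ENSMUSG00000026726, GRCm38 chr2:13276338-13491813, minus strand) encodes cubilin, a large peripheral receptor for albumin, transferrin and the intrinsic factor-vitamin B12 complex. It had 30 and 45 counts in the si-NC libraries and 33 and 39 in the libraries labelled si-*Itgb6*, spread over an implied 11253 bases or more. The means were 2.22 ± 0.541 and 2.25 ± 0.167 CPM (SD, n = 2), and the log2 fold change of 0.02 ± 0.35 (SE) had a 95% interval of -0.70 to 0.74 and an adjusted p of 0.989 (edgeR). Its exons overlap *Gm13270*. *Amn* (ENSMUSG00000021278, GRCm38 chr12:111271095-111276426, plus strand), which encodes amnionless, the membrane anchor that cubilin needs to reach the cell surface, had 0 counts in all 4 libraries. A count of 0 allows up to 0.194 CPM in the shallowest library.

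*Lrp2* (ENSMUSG00000027070, GRCm38 chr2:69424340-69586065, minus strand) encodes megalin, the scavenger receptor of the LDL receptor family that carries cubilin into the cell. It had 7 and 4 counts in the si-NC libraries and 2 and 17 in the libraries labelled si-*Itgb6*, or 0.429 and 0.232 against 0.129 and 1.03 CPM. The libraries labelled si-*Itgb6* held both the lowest and the highest value, and *Lrp2* did not pass the filter on low counts. With no filter its log2 fold change was 0.82 ± 0.91 (SE) with an adjusted p of 0.745 (edgeR).

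**Figure D5:**
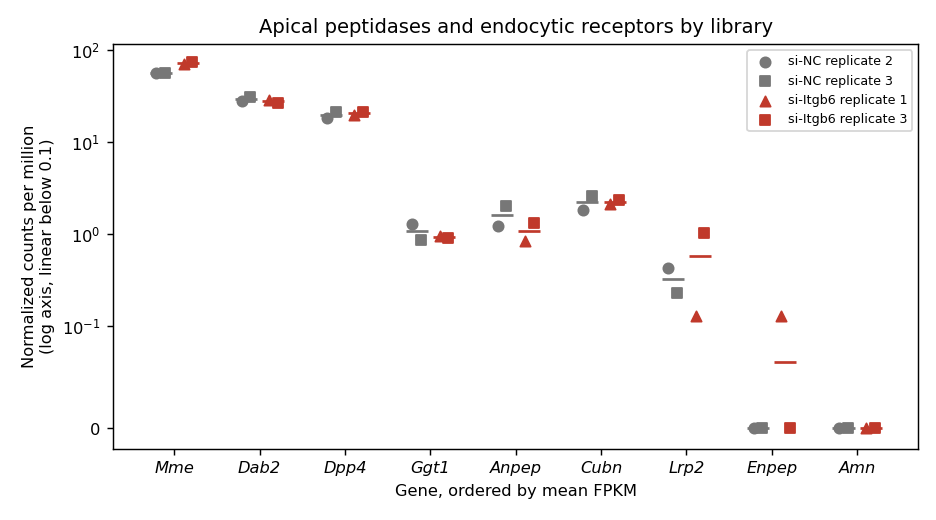
CPM (vertical axis, log scale with a linear stretch below 0.1) of each of the 9 members (horizontal axis, in order of mean FPKM) in the 4 libraries, where each point is 1 library and the bar is the group mean. The groups separate for *Mme*, with 57.2 and 57.4 CPM in si-NC and 71.4 and 74.2 CPM in the libraries labelled si-*Itgb6*, and overlap for the other 8 members.

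The other apical peptidases and hydrolases were mostly at or near 0. Of 13 genes, 6 had 0 counts in every library, among them *Mep1b*, *Cltrn*, *Xpnpep2*, *Treh* and *Folh1*, 3 were tested and none was called by edgeR at either threshold. *Nt5e*, the ecto-5'-nucleotidase CD73, had the highest level of the list with 8.69 FPKM and a log2 fold change of 0.18 with an adjusted p of 0.329. Of the 6 relatives of neprilysin, *Ece1*, the endothelin-converting enzyme, was the one tested, at 9.08 FPKM with a log2 fold change of -0.18 and an adjusted p of 0.282. No call was thus made in the 3 apical enzymes tested or in *Ece1*. *Ace* and *Alpl*, also tested, had only 22 to 58 and 9 to 16 counts. Over all genes tested 4.37% were called higher and 5.20% lower, so with so few genes the lack of a call says little. The differences between genes were not themselves tested.

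Most relatives of the peptidases by family had enough counts to be tested. Of 9 genes of the M1 aminopeptidase family, 7 were tested, and *Rnpepl1* was called, lower, from 254 and 202 counts to 134 and 136, a log2 fold change of -0.69 ± 0.17 (SE) with an adjusted p of 0.0137 (edgeR). *Npepps*, the cytosolic puromycin-sensitive aminopeptidase, led this family with 64.6 FPKM and a log2 fold change of 0.16 with an adjusted p of 0.0809. Of 9 genes of the dipeptidyl peptidase and prolyl oligopeptidase families, 6 were tested, and *Dpp9*, a cytosolic dipeptidyl peptidase, was called, lower. Its counts were 992 and 1031 in the si-NC libraries and 703 and 758 in the libraries labelled si-*Itgb6*, a log2 fold change of -0.40 ± 0.082 (SE) with an adjusted p of 0.00288 (edgeR). *Apeh*, the acylaminoacyl-peptide hydrolase, was highest in that list at 26.7 FPKM. None of the 9 tested genes of glutathione breakdown and the gamma-glutamyl cycle was called by edgeR, and *Gclm*, the modifier subunit of glutamate-cysteine ligase, was highest at 78.9 FPKM.

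In the LDL receptor family, to which megalin belongs, 9 of the 11 genes tested were below 0 and the median log2 fold change was -0.19, against 0.00017 for all genes. *Lrp10* had 1789 and 1824 counts in the si-NC libraries and 1321 and 1408 in the libraries labelled si-*Itgb6*, a log2 fold change of -0.33 ± 0.069 (SE) with an adjusted p of 0.00288 (edgeR). With GC content and length trends removed, *Lrp10* was at -0.19 with an adjusted p of 0.143 and was no longer called, and its exons overlap *Gm10366*. *Sorl1* passed only the unadjusted threshold, with a log2 fold change of -0.35 and an adjusted p of 0.111. The median of the family stayed below 0 under every scaling, at -0.20 by library size alone and at -0.15 with GC content and length trends removed.

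The machinery that megalin and cubilin use was present, and few of its genes were called. Of 25 partners and adaptors, 23 had at least 1 FPKM, led by *Ehd1*, a recycling endosome protein, at 55.8 FPKM, and *Cblif*, the intrinsic factor, had 0 counts. *Ctns*, the lysosomal cystine transporter, was higher at the unadjusted threshold, with a log2 fold change of 0.29 and an adjusted p of 0.239 (edgeR), and none passed the adjusted threshold. All 30 genes of clathrin, the AP-2 adaptor and early endosomes were above 1 FPKM, and none was called by edgeR. Their highest was *Ap2m1*, the medium subunit of AP-2, at 346 FPKM with a log2 fold change of 0.06, and the median was 0.015.

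Of 24 genes of brush border structure, 17 had at least 1 FPKM and 18 were tested, with 3 at an adjusted p under 0.05 by edgeR. *Espn*, an actin-bundling protein of microvilli, was lower, from 5873 and 6078 counts to 4729 and 4551, a log2 fold change of -0.29 ± 0.055 (SE) with an adjusted p of 0.00119. With GC content and length trends removed, *Espn* was at -0.11 with an adjusted p of 0.282, and without si-*Itgb6* replicate 3 it was at -0.22, under the fold threshold, with an adjusted p of 0.00811 (edgeR). *Msn*, moesin, was lower with a log2 fold change of -0.18 and an adjusted p of 0.0335. *Prom1*, prominin-1 of membrane protrusions, was the highest of the list with 202 FPKM and was higher with a log2 fold change of 0.19 and an adjusted p of 0.0164. Exons of *Msn* and *Prom1* overlap *Gm24718* and *Gm16401*. *Ush1c*, the scaffold harmonin, had 0 counts in every library, and *Vil1*, which encodes villin, had 0 to 4, so that part of the microvillar list was near the floor beside genes at high levels.

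*Aqp1*, the water channel of the proximal tubule and thin limb, was the proximal tubule marker called. It had 387 and 477 counts in the si-NC libraries and 601 and 633 in the libraries labelled si-*Itgb6*, or 25.7 ± 2.75 and 38.6 ± 0.269 CPM (SD, n = 2). The log2 fold change was 0.59 ± 0.10 (SE) with an adjusted p of 0.000617 (edgeR), and with GC content and length trends removed it was 0.65 with an adjusted p of 0.00123. The 25 proximal tubule markers summed to 36.5 to 38.9 FPKM in the si-NC libraries and 40.9 to 41.3 FPKM in the libraries labelled si-*Itgb6*, and the other 7 tested had adjusted p-values over 0.05. The sums do not stand for a general rise. Of the 8 markers tested, 4 log2 fold changes were above 0 and 4 below, with a median of -0.028.

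Markers of other kidney cells were set beside *Mme*, which podocytes also express. Of 5 podocyte markers, 3, *Nphs1* and *Wt1* among them, had 0 counts in every library, and the list, led by *Podxl*, summed to 11.5 to 12.2 FPKM in the si-NC libraries and 11.8 to 12.1 in the libraries labelled si-*Itgb6*. Of 8 collecting duct markers, *Aqp2*, *Foxi1* and *Atp6v1b1* had 0 counts, and the list, led by *Aqp3*, summed to 3.93 to 4.02 FPKM in the si-NC libraries and 5.02 to 5.31 in the libraries labelled si-*Itgb6*, which moved with *Mme* and whose part in the result was not tested. *Aqp3* itself was higher at the unadjusted threshold, with a log2 fold change of 0.41 and an adjusted p of 0.255 (edgeR).

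Over these 224 listed genes apart from the 9 members, 138 were tested, and 5 were lower and 3 higher at the unadjusted threshold, 5.80% of those tested. The same threshold called 5.20% of all genes tested lower and 4.37% higher. At an adjusted p under 0.05 (edgeR) 7 were lower and 3 higher, where 2.52% of all genes tested were lower and 2.11% higher. With *Mme*, these 11 genes kept their sign in every setting tried, but they were picked in these same libraries, so this is no separate evidence. Only 4 of them, *Dpp9*, *Prom1*, *Msn* and *Aqp1*, kept an adjusted p under 0.05 (edgeR) with GC content and length trends removed. None of the 11 kept it without si-NC replicate 2, when 13 genes of the whole table had such a p against 542 with all libraries, and 3 kept it without si-NC replicate 3.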

How the data were processed

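Libraries of TKPTS cells were compared between the labels si-NC (n = 2) and si-*Itgb6* (n = 2). Polyadenylated RNA had been read as unstranded pairs by the authors, who deposited an estimated count for each gene, not normalized and not whole for 1447 to 1500 genes per library. The authors also deposited FPKM values, which sum to 538580 to 546173 per library. The aligner, counting tool and genome build are not given in the sources used here, and the study's methods say that samples were optimized after clustering.

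Counts were rounded. The edgeR function filterByExpr (minimum count 10, total 15) left 11727 of 22063 genes, and 15340 had at least 1 count. Groups were compared in R 4.3.3 with edgeR 4.0.16, by TMM factors and its quasi-likelihood test, with Benjamini-Hochberg adjustment over all genes tested. Genes were called at an unadjusted p under 0.05 with a fold change over 1.2, the study's thresholds. FPKM served to compare genes and was tested as log2(FPKM + 0.1) and log2(FPKM + 1) with limma 3.58.1. DESeq2 1.42.0 was an alternative, as were exact and likelihood ratio tests, RLE factors, library size alone, other filters, a fold change over 1.5, trends of GC content and length removed by lowess, and leaving out each library. The scripts were tested on simulated counts.

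Annotation was GENCODE vM21 (GRCm38), which held 99.6% of identifiers and may not be that of the authors. The members and lists were chosen with earlier results of these data known. The text names the members, *Itgb6*, of each list every gene with an adjusted p under 0.05 and the gene with the highest FPKM, and markers at 0. *Ctns*, *Sorl1*, *Vil1*, *Ece1* and others outside that rule were named after their values were seen, and some listed genes are not reported here. Totals of 15435074 to 17220281 counts set a floor of 3 counts, which covers counting error only. Replicates differed by a chi-square of 3.21 (si-NC) and 4.04 (si-*Itgb6*) per gene, so each was counted. With 2 libraries per group no permutation can reach a p under 0.05.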

Additional observations from a re-analysis of the deposited data

How the results depend on the processing

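*Mme* was higher in all settings, with a log2 fold change of 0.21 to 0.35 over the settings with all libraries and 0.32 to 0.37 on leaving out each library, and no member was called lower in any, although *Dab2* was below 0 in all of them. The number of members called higher was 0, not 1, with GC content and length trends removed (*Mme* log2 fold change 0.22), with limma on log2(FPKM + 0.1) (0.23), with limma on log2(FPKM + 1) (0.21) and at a fold change over 1.5. The smaller *Mme* value on the FPKM scale follows arithmetically from its implied length. That length was 4540 and 4155 bases in the si-NC libraries and 4698 and 4625 in the libraries labelled si-*Itgb6*. *Anpep* turned to 0.55 with a pseudocount of 0.1 and to 0.25 with 1, which follows from its implied length, and was -0.95 to -0.16 on leaving out each library. *Dpp4* and *Cubn* turned to -0.0024 and -0.032 with the GC content and length trends removed. On leaving out each library, *Dpp4* ranged from -0.050 to 0.19, *Cubn* from -0.21 to 0.29, *Ggt1* from -0.45 to 0.11, *Dab2* from -0.17 to -0.0068 and *Itgb6* from -0.10 to 0.091. The list genes called numbered 8, or 10 by adjusted p. Leaving out a library leaves 1 in its group, which is then assumed to vary like the other group. No paired analysis was possible because the groups share only 1 replicate number, 3. Depth limits *Enpep*, *Amn* and *Lrp2*, with 2, 0 and 30 counts over the 4 libraries.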

Other observations

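Of 10 tubular injury markers, 9 had at least 1 FPKM and all 10 were tested. *Lcn2*, which encodes the iron-carrier protein NGAL, was the highest with 672 FPKM and was lower in the libraries labelled si-*Itgb6*, from 10454 and 11432 counts to 9045 and 9439, a log2 fold change of -0.17 ± 0.048 (SE) with an adjusted p of 0.0322 (edgeR quasi-likelihood test, Benjamini-Hochberg). *Havcr1*, which encodes the injury receptor KIM-1, was higher, from 3791 and 4148 counts to 4115 and 4501, a log2 fold change of 0.19 ± 0.054 (SE) with an adjusted p of 0.0358 (edgeR). With GC content and length trends removed they were at -0.14 and 0.12, with adjusted p-values of 0.122 and 0.241 (edgeR). Neither passed a fold change of 1.2, and the median of the list was 0.04.

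Markers of other cells were low, with exceptions. *Cd68*, a lysosomal protein, was at 84.5 FPKM with a log2 fold change of -0.15 and an adjusted p of 0.244 (edgeR), whereas the leukocyte genes *Ptprc* and *Adgre1* had 0 to 6 and 0 to 1 counts. Among 5 endothelial markers *Cdh5* was highest at 1.08 FPKM, and *Emcn* had 0 counts. *Pdgfrb* led the 5 fibroblast markers at 0.531 FPKM. *Trpm6* led the 4 distal tubule markers at 1.22 FPKM, with *Pvalb* and *Calb1* at 0 counts, and *Cldn16* led the 5 loop of Henle markers at 0.0635 FPKM, with *Umod*, *Kcnj1* and *Cldn10* at 0 counts. Of 13 renal epithelial transcription factors 5 were tested, and none was called by edgeR at either threshold.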
